A study of Mus musculus with 9 samples.

Results

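The uroplakins are a small group of membrane proteins of the urothelium, the lining of the bladder, and 5 of their genes were read here in the esophagus of newborn mice: Upk1a, Upk1b, Upk2, Upk3a and Upk3b. The members were all non-control array probes that carry 1 of these 5 gene names, which gave 6 probes of 41174. All 5 genes were among the 22643 tested, each through a probe whose sample signal was well above background on 9 of 9 arrays. A second Upk1a probe was well above background on 0 of 9 arrays and was left out of the fits. The genes were chosen by family name and with the Upk1b log ratios of the knockout with Cdx2 against wild type in view, where Upk1b had fallen. That contrast is therefore given as a description with no test, as is any Upk1b difference of the Cdx2 arrays.

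In the urothelium the tetraspanins uroplakin 1a and 1b each leave the endoplasmic reticulum with a partner that spans the membrane once. Uroplakin 1a pairs with uroplakin 2, and uroplakin 1b pairs with uroplakin 3a or 3b. The pairs assemble into rigid plaques on the apical surface of the umbrella cells, where they take part in the barrier to urine. The esophagus is lined by stratified squamous epithelium and is not a site of such plaques. Transcripts of single members are known from other epithelia, and Upk3b is also known as a gene of the mesothelium.

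Total RNA from the esophagus at postnatal day 0 was measured in 3 genotypes, all labelled C57BL/6J. The groups were p63-/- mice that also carried a Cdx2 transgene under the name Villin-Cdx2 (n = 2), p63-/- mice (n = 3) and wild type mice (n = 4). Both knockout groups are labelled as lacking p63, the Trp63 product that directs squamous epithelium, and no group carried the transgene alone. The villin promoter is best known as a driver of the intestinal epithelium, and the labels do not say how strongly it acted in the esophagus. The labels number the Cdx2 samples out of 3, and 2 were analysed here. RNA of each sample was labelled with Cy5 and hybridised with a common reference RNA of 11 cell lines in Cy3, so a log2 ratio is sample over reference. The labels name the epithelium as cell type, while the protocol took tissue.

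Facts of the whole series bear on every value. Each genotype lay on 1 slide of its own, so slide and genotype cannot be told apart. The sample channel had 30021 to 33243 probes well above background on each array, and the median sample signal was 309 to 472 intensity units. A label of wild type replicate 4 names the knockout, while its title and genotype name wild type. Its summed signal of 12 squamous epithelium genes was 401502 intensity units, within the 336510 to 407807 of the wild type group and above the 66699 or less of both knockout groups. Krt15 weighed most in this sum. The median log2 ratio of the 12 genes was 2.75 on that array, 2.54 to 2.83 over the wild type group and 0.49 or less in both knockout groups. The brightest Trp63 probe had log2 ratios of 3.37 and 3.09 in the knockout with Cdx2, 2.73 to 2.74 in the knockout and 3.39 to 4.13 in wild type. A dimmer Trp63 probe, well above background on 9 of 9 arrays, ran the other way, with 1.43 and 1.13 in the knockout with Cdx2, 0.72 to 0.83 in the knockout and 0.16 to 0.73 in wild type. The deleted part of the gene is not stated, and a probe outside it checks nothing, so the probes do not settle the labels. The Cdx2 probe was well above background on 0 of 9 arrays, and whether it reads the transgene was not checked.

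The probes decide what each value can say about a gene. In the mm9 coordinates of the files, the Upk1b probe lies on chromosome 16 at 38773859 to 38773918, minus strand, and starts 1147 bases into its transcript. The Upk1a probe that was used lies on chromosome 7 at 31388428 to 31388487, 931 bases into the transcript. The Upk1a probe that was not above background starts further 5′, at base 452, and its 60 bases span 1694 bases of the genome, from 31390241 to 31391934, so it crosses an intron. The Upk3a probe on chromosome 15, 84851819 to 84852720, likewise spans 902 bases of the genome. The Upk2 probe lies on chromosome 9 at 44260822 to 44260881, 790 bases into its transcript, and the Upk3b probe on chromosome 5 at 136520522 to 136520581, at base 1694. Which exon each probe lies in was not looked up, since no mm9 annotation was used here. The probe that carries the Upk1b result is shown by its first 30 bases, and the junction probes of Upk1a and Upk3a by all 60, 5′ to 3′ in lower case with no base marked.
Upk1b: ctatataagacagaaagtttggagaatgga
Upk1a junction: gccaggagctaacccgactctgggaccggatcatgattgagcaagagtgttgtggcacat
Upk3a junction: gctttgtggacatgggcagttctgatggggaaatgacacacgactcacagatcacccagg
A probe that crosses an intron reads spliced RNA, while a probe within 1 exon can also read unspliced RNA or genomic DNA.

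Upk1b, the tetraspanin that partners uroplakins 3a and 3b, was the member with the widest spread between genotypes, and it was picked with that fall known. Its log2 ratios were 0.40 and 1.43 in the knockout with Cdx2, 1.59, 1.51 and 1.97 in the knockout, and 3.61, 3.84, 3.24 and 4.17 in wild type. Every knockout array lay below every wild type array, and both Cdx2 arrays lay below all 3 knockout arrays. The mean was 0.91 ± 0.73 with Cdx2 (SD, n = 2). It was 1.69 ± 0.25 for knockout arrays (SD, n = 3) and 3.72 ± 0.39 for wild type arrays (SD, n = 4). Wild type replicate 3 was the lowest of its group. After normalization its reference channel was 8.98 on the log2 scale, against 8.28 to 8.31 on the other wild type arrays. Its normalized sample channel of 12.23 lay within the 11.92 to 12.45 of those arrays. Before normalization, its reference signal over background, 184 units, was the lowest of the wild type arrays. Its log2 ratio from the scanner software, 4.26, was the highest of them.

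**Figure D1:**
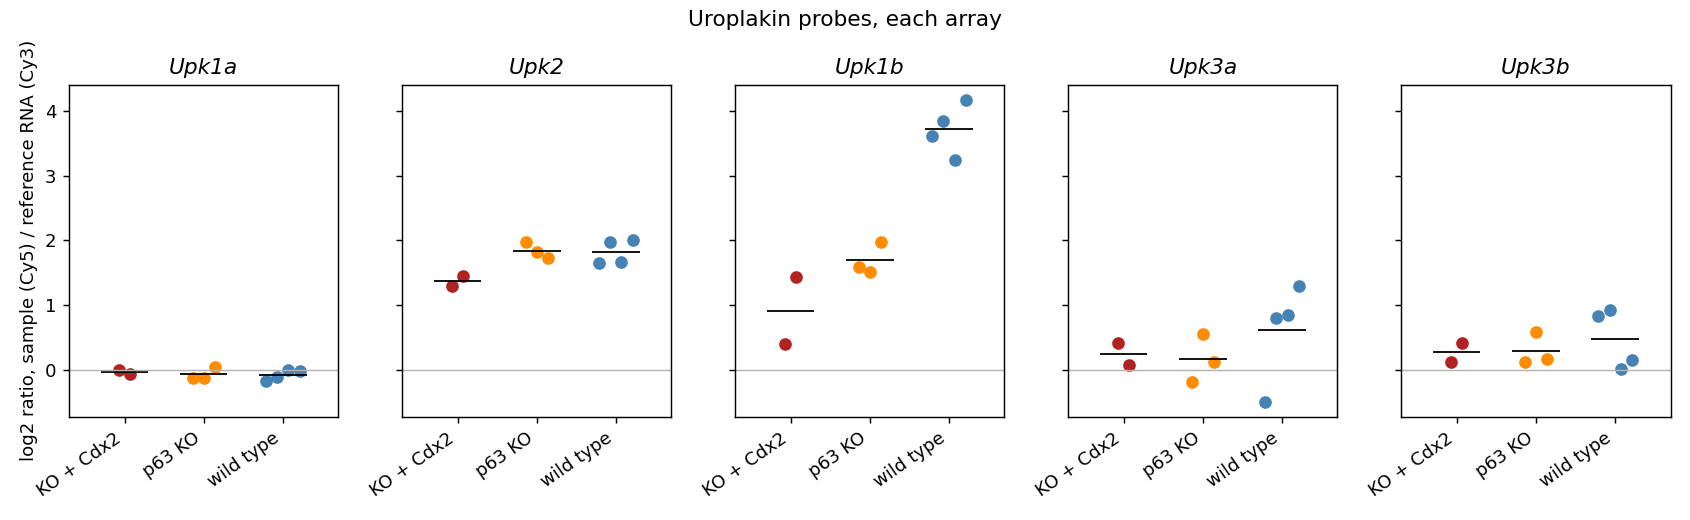
Log2 ratio of sample (Cy5) over reference RNA (Cy3) for the 5 uroplakin genes, 1 point per array, with the group mean as a bar, for the knockout with Cdx2 (n = 2), the knockout (n = 3) and wild type (n = 4). Upk1b lies at 1.97 or less on every knockout array, with or without Cdx2, and at 3.24 or more on every wild type array, while the Upk2 ratios with Cdx2 lie below the rest and the groups of Upk1a, Upk3a and Upk3b overlap.

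Upk1b fell in the knockout (n = 3) relative to wild type (n = 4) by 2.03 on the log2 scale (SE 0.28, 95% interval -2.68 to -1.38), a fold of 4.08 (limma, adjusted p = 0.0326). It was the 1 member of 5 that passed, where 0.327% of all 22643 genes did, 13 higher and 61 lower. It was also the 1 member whose arrays did not overlap, as for 10.5% of all genes, and the 1 with an unadjusted p under 0.05, as for 7.80% of all genes. In the sample channel alone Upk1b was again the 1 member that passed, among 1.74% of all genes, 173 higher and 222 lower. These wild type arrays are also those of the comparison for which Upk1b was chosen, so its fall here is not independent of that choice. The call was lost in 6 of 9 fits that left out 1 array, with limma adjusted p of 0.0854, 0.127 and 0.0815 without wild type replicates 1, 2 and 4, and 0.147, 0.191 and 0.103 without knockout replicates 1, 2 and 3. The difference itself stayed between -2.19 and -1.88 in these fits.

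The sample channel alone gave Upk1b a larger difference than the ratio. The sample signal over local background was 310 and 778 intensity units with Cdx2, 825, 968 and 1310 in the knockout, and 4290, 4798, 5219 and 6768 in wild type. The highest knockout signal, 1310 units, was far below the lowest wild type signal of 4290 units. After normalization the sample channel fell by 2.60 on the log2 scale in the knockout relative to wild type (SE 0.26), a fold of 6.07 (limma, adjusted p = 0.0019). The normalized reference channel of the same probe, which holds the same RNA on every array per the labels, differed by -0.57 between these slides. The normalized 8.98 of wild type replicate 3 is part of this difference. The reference signals were 119 to 120 units with Cdx2, 126 to 136 in the knockout and 184 to 205 in wild type. Why the reference channel moved with the sample channel was not tested.

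**Figure D2:**
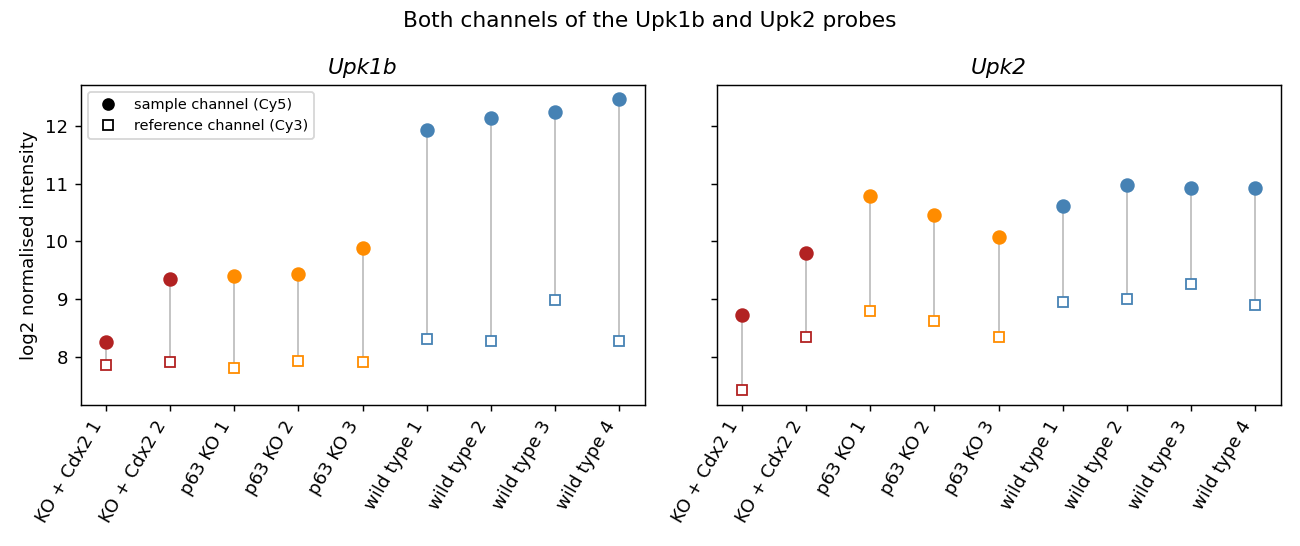
Normalized log2 intensity of the sample channel (filled circles) and the reference channel (open squares) of the Upk1b and Upk2 probes on each of the 9 arrays, joined by a line whose length is the log2 ratio. For Upk1b the sample channel carries most of the difference between genotypes, while for Upk2 both channels are lowest in replicate 1 of the knockout with Cdx2.

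Within the knockout, Upk1b was lower with the Cdx2 transgene, which is a description, since the Cdx2 values led to its choice. The ratio difference of the knockout with Cdx2 (n = 2) minus the knockout (n = 3) was -0.78. In the sample channel it was -0.77 and in the reference channel 0.01. The value rests on replicate 1. It was -0.26 without that array and -1.29 without Cdx2 replicate 2. As a description, the Upk1b ratio of the knockout with Cdx2 lay 2.80 below that of wild type, a fold of 6.98, and the sample channel differed by -3.37, a fold of 10.3. The ratio stood at -2.29 against wild type without Cdx2 replicate 1 and at -3.32 without replicate 2.

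Markers of squamous epithelium were also lower in both knockout groups than in wild type. The summed sample signal of 12 of 12 measured squamous genes was 45568 and 58937 units with Cdx2, 47770 to 66699 in the knockout and 336510 to 407807 in wild type. Krt15 weighed most in this sum. Its ratio differed by -0.36 between knockout and wild type (SE 0.10; limma, adjusted p = 0.351), its sample channel by -2.55 and its reference channel by -2.19. Of the 12 squamous genes 7 fell in the knockout against wild type as ratios, where 0.327% of all genes passed, and 5 did not pass. In the sample channel 12 fell, where 1.74% of all genes passed. The reference channel differed there too, from -5.09 for Krt5 to 0.09 for Perp, and the cause was not tested. The marker Dsg3 was well above background on 4 of 9 arrays, fewer than the other 11. The median log2 sample signal of the 12 was 7.93 in Cdx2 replicate 1, where Upk1b was lowest, and 9.68 in replicate 2, against 8.26, 9.27 and 9.08 in the knockout and 13.37 to 13.70 in wild type. In this median Cdx2 replicate 2 lay above all 3 knockout arrays, but its summed signal of 58937 lay within the knockout range. Single markers of the list differed in this. Its Upk1b ratio lay below all 3 knockout arrays. In bulk tissue, fewer cells of a type and less RNA per cell cannot be told apart. The part of these cells in the Upk1b result was not tested.

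Upk1a, the other tetraspanin and the partner of uroplakin 2, was near the limit of detection. Its log2 ratios were -0.01 and -0.07 with Cdx2, -0.13, -0.13 and 0.04 in the knockout, and -0.18, -0.12, -0.01 and -0.02 in wild type. All 9 values lay within a narrow band and the groups overlapped. Sample signals over background were 66.6 and 52.3 units with Cdx2, 63.1 to 143.7 in the knockout and 40.1 to 62.1 in wild type. These lie close to the offset of 50 units added before logs were taken, which draws ratios toward 0. Upk1a differed by 0.01 between knockout and wild type (SE 0.08, 95% interval -0.17 to 0.19; limma, adjusted p = 0.984) and by 0.03 between knockout with Cdx2 and knockout (SE 0.09; limma, adjusted p = 0.916). The junction probe of Upk1a, with 10.1 to 32.3 units over background, was well above background on none of the 9 arrays.

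Upk2, the partner of uroplakin 1a that the protease furin trims on its way to the surface, was clearly above background in all genotypes. Its log2 ratios were 1.30 and 1.45 with Cdx2, 1.98, 1.82 and 1.72 in the knockout, and 1.65, 1.97, 1.66 and 2.01 in wild type. Both Cdx2 arrays lay below the other 7, while knockout and wild type overlapped throughout. Between knockout (1.84 ± 0.13, SD, n = 3) and wild type (1.82 ± 0.19, SD, n = 4) the ratio differed by 0.01 (SE 0.12, 95% interval -0.26 to 0.29; limma, adjusted p = 0.982). Both channels were lower there, the sample by -0.42 (limma, adjusted p = 0.498) and the reference by -0.43. The sign of the ratio difference turned in 4 alternatives, to -0.09 without background subtraction.

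The Upk2 ratio of the knockout with Cdx2 averaged 1.37 ± 0.11 (SD, n = 2), a difference of -0.47 from the knockout (SE 0.14, 95% interval -0.79 to -0.14). Over 12 alternatives this difference ran from -1.18 to -0.28. It did not pass in the main fit (limma, unadjusted p = 0.0109, adjusted p = 0.363). No gene did, a background of 0%. Upk1b was not tested here, since the Cdx2 values led to its choice. Of the members tested, only Upk2 had an unadjusted p under 0.05, as 11.4% of all genes did. In the sample channel 51 genes passed, or 0.225%, and 0 of the members tested. Upk1b, as a description, and Upk2 were the 2 of 5 members whose arrays did not overlap, against 32.1% of all genes. With groups of 2 and 3 arrays such a separation is common.

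The sample and reference channels told different sizes for Upk2. Sample signals over background were 448 and 1102 units with Cdx2, 2292, 2064 and 1521 in the knockout, and 1681, 2109, 2102 and 2278 in wild type. Reference signals of the same spots were 77.0 and 178 units with Cdx2, 325, 247 and 189 in the knockout, and 323 to 339 in wild type. Both channels were dim together in Cdx2 replicate 1. The sample channel thus differed by -1.18 between knockout with Cdx2 and knockout (limma, adjusted p = 0.145) and the reference channel by -0.71. Against wild type, as a description, the Upk2 ratio with Cdx2 stood at -0.45, the sample channel at -1.59 and the reference channel at -1.14.

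Markers of other tissues differed between both Cdx2 arrays. The summed signal of 9 airway epithelium genes was 181033 units in Cdx2 replicate 1 and 726047 in replicate 2, against 568664 to 896696 in the knockout and 561595 to 920965 in wild type. The sum of 9 mesothelium genes was 21372 and 59460 units with Cdx2, against 51211 to 69603 in the knockout and 38753 to 65487 in wild type. The low mesothelium sum of replicate 1 came from Msln and Muc16, while Wt1 was highest there of all 9 arrays, at 10.88 on the log2 scale of the sample channel. The median log2 sample signal of the list was 10.10 and 10.15 with Cdx2, 10.06 to 10.49 in the knockout and 9.67 to 10.56 in wild type. Skeletal muscle ran the other way, with sums of 811842 units in Cdx2 replicate 1 and 281835 in replicate 2. Airway and mesothelial genes were thus present on arrays labelled as esophageal epithelium in every genotype. Their part in the Upk1b and Upk2 values of Cdx2 replicate 1 was not tested.

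Upk3a, a partner of uroplakin 1b and the member with the longest cytoplasmic tail among the classical plaque proteins, varied most within wild type. Its log2 ratios were 0.42 and 0.07 with Cdx2, -0.19, 0.55 and 0.12 in the knockout, and -0.49, 0.81, 0.84 and 1.30 in wild type. Wild type replicate 1 was the lowest of all 9 arrays and the other 3 wild type arrays were the highest. The knockout (0.16 ± 0.37, SD, n = 3) differed from wild type (0.61 ± 0.77, SD, n = 4) by -0.45 (SE 0.39, 95% interval -1.34 to 0.44; limma, adjusted p = 0.813). It was -0.82 without wild type replicate 1, and no fit with 1 array left out called it. The knockout with Cdx2 differed from the knockout by 0.08 (SE 0.47, 95% interval -0.98 to 1.15; limma, adjusted p = 0.963).

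Sample signals of Upk3a over background were 803 and 588 units with Cdx2, 392, 976 and 556 in the knockout, and 315, 1002, 1165 and 1510 in wild type. The low wild type replicate 1 had the highest sum of 6 simple epithelium genes, at 411506 units against 184377 to 255430 on the other wild type arrays, and the lowest sum of 7 skeletal muscle genes, at 276056 units. Its squamous sum of 336510 was the lowest of the 4 but far above that of the knockouts. The part of these tissues in the Upk3a spread was not tested.

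Upk3b, the alternative partner of uroplakin 1b, fell into a higher and a lower pair of arrays within wild type. Its log2 ratios were 0.12 and 0.41 with Cdx2, 0.12, 0.58 and 0.17 in the knockout, and 0.83, 0.92, 0.01 and 0.15 in wild type. Both the highest and the lowest array were wild type, so the groups overlapped. The knockout (0.29 ± 0.25, SD, n = 3) differed from wild type (0.48 ± 0.46, SD, n = 4) by -0.18 (SE 0.25, 95% interval -0.75 to 0.38; limma, adjusted p = 0.877). The knockout with Cdx2 (0.27 ± 0.20, SD, n = 2) differed from the knockout by -0.03 (SE 0.29, 95% interval -0.70 to 0.65; limma, adjusted p = 0.982).

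Sample signals of Upk3b over background were 1802 and 2165 units with Cdx2, 1730, 3045 and 2067 in the knockout, and 2910, 2981, 1232 and 1776 in wild type. Wild type replicates 1 and 2 were the bright pair. On the same 2 arrays the sum of 5 thyroid genes was 894 and 672 units, against 201382 and 126274 on wild type replicates 3 and 4. The median log2 sample signal of 9 mesothelium genes, a tissue where Upk3b is known to be expressed, was 10.17 and 10.56 on replicates 1 and 2 and 9.67 and 10.01 on replicates 3 and 4. Wt1, a mesothelial transcription factor, divided the wild type arrays in the same way, with 10.28 and 10.56 against 10.06 and 10.08. Lrrn4, Gpm6a and Rspo1 of the list did so too. Bnc1 and Muc16 divided them the other way, Bnc1 with 8.34 and 8.42 against 8.66 and 8.58. Msln, Calb2 and Cldn15 did not divide them. The sum over the list, in which Msln weighs most, did not divide them either, at 38753 and 65487 units against 46348 and 50809. The part of these tissues in the Upk3b values was not tested.

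**Figure D3:**
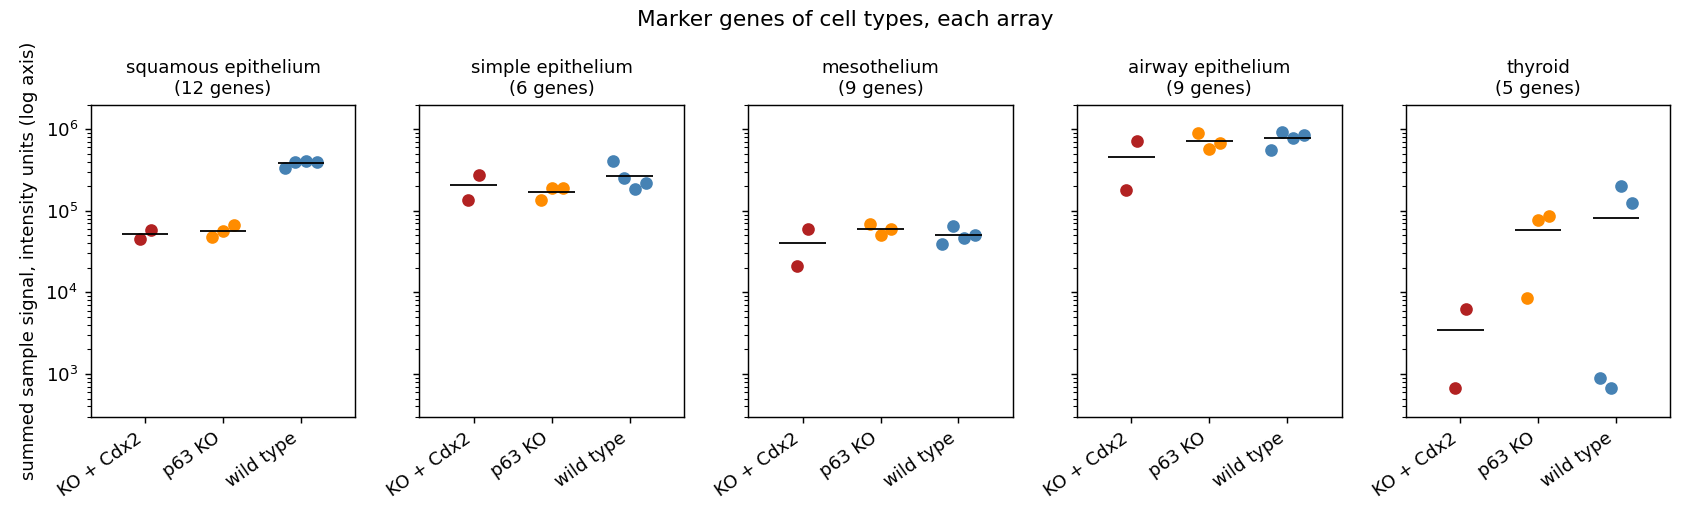
Summed sample signal of marker genes (intensity units, log axis) on each array for 5 lists, with the group mean as a bar, for the knockout with Cdx2, the knockout and wild type. Krt15 weighs most in the squamous sum, which is at 66699 or less on the knockout arrays, with or without Cdx2. On wild type arrays it is at 336510 or more. The airway and mesothelium sums are lowest in Cdx2 replicate 1 (for mesothelium through Msln and Muc16). The thyroid sum spans from 672 to 201382 within wild type.

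Set side by side, the 5 members did not move as 1 group. In the knockout against wild type their median difference was -0.18, with 3 negative and 2 positive, beside a median of 0.02 over all genes. Between knockout with Cdx2 and knockout it was -0.03, again with 3 negative and 2 positive, and all genes had a median of -0.03. In the contrast used to choose Upk1b, that of Cdx2 arrays with wild type, the members' median was -0.37 and that of all genes 0.00 after rounding. There 2 members, Upk1b and Upk2, had arrays that did not overlap, as 27.7% of all genes did, and nothing is read from this count. In that contrast Upk3a stood at -0.37, Upk3b at -0.21 and Upk1a at 0.04. Both comparisons with wild type share the wild type arrays.

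**Figure D4:**
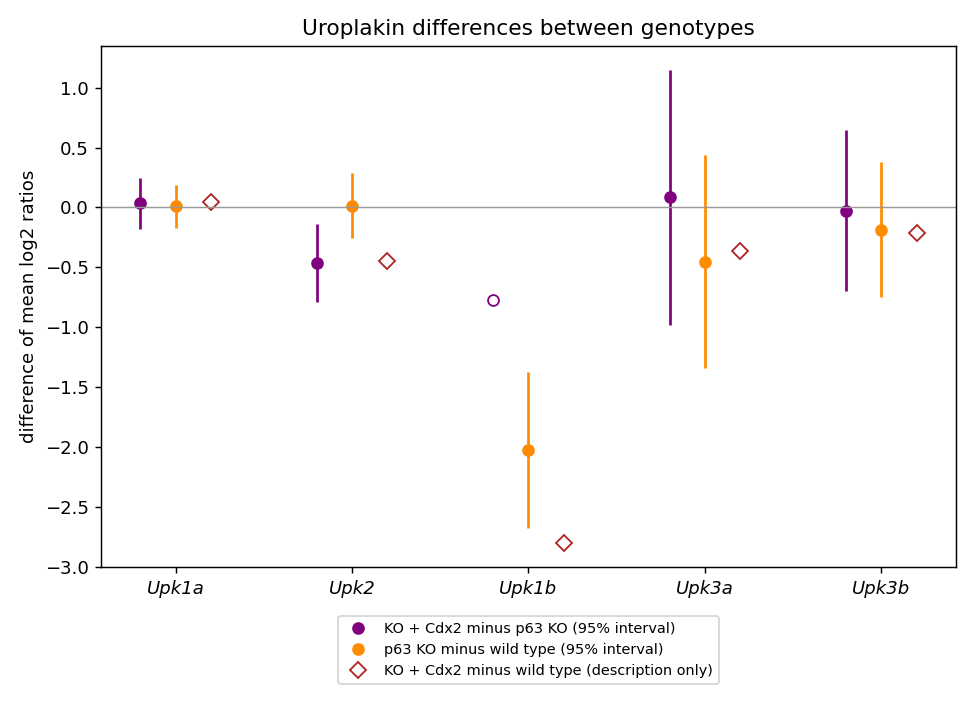
Difference of mean log2 ratios for each uroplakin gene, with 95% intervals from limma for the knockout with Cdx2 minus the knockout and for the knockout minus wild type. Open symbols carry no interval: diamonds are the knockout with Cdx2 minus wild type, and the open circle is Upk1b in the knockout with Cdx2 minus the knockout, since the Cdx2 values led to the choice of Upk1b. The Upk1b interval for the knockout minus wild type runs from -2.68 to -1.38, and the widest intervals are those of Upk3a.

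Genes were ranked by how closely their values followed those of Upk1b. Likeness was the root mean square difference of log2 ratios, each gene centred on its own mean over the 9 arrays, among 17338 genes with a known symbol. Aqp3, a water and glycerol channel, was nearest at 0.259, against a spread of 1.25 for Upk1b itself. It was followed by Duoxa1, a maturation factor of the dual oxidase, at 0.333, the basal keratin Krt14 at 0.346, the surface protein Lypd3 at 0.346 and the surface antigen Psca at 0.348. The log2 ratios of Aqp3 were 0.39 and 1.20 with Cdx2, 1.92, 1.67 and 2.20 in the knockout, and 3.76 to 4.04 in wild type. The arrays of Aqp3 and of the other genes named here fell in the same 3 steps as those of Upk1b. The genes were ranked by likeness over these arrays, so this is no separate result. Krt14 and Lypd3 are also in the squamous marker list.

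**Figure D5:**
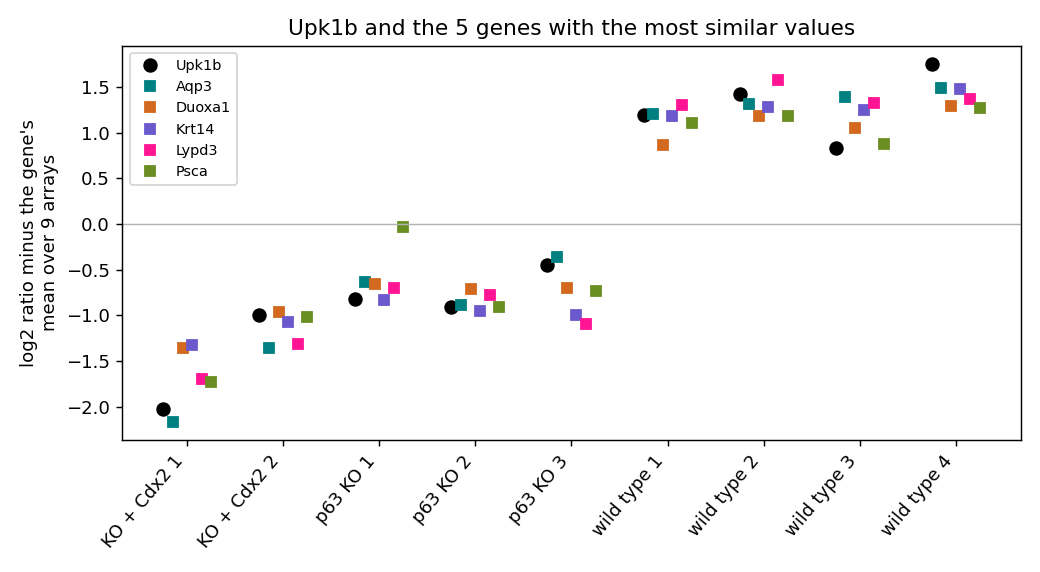
Log2 ratio minus the gene's own mean over 9 arrays for Upk1b (circles) and the 5 genes nearest to it (squares) on each array. All 6 genes lie below 0 on the 5 knockout arrays and above 0 on the 4 wild type arrays, and all 6 are lowest in Cdx2 replicate 1.

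The other members had different neighbours. Upk2 was nearest to Flot1, Col4a2 and Pink1 (0.060 to 0.065, against its own spread of 0.232). Upk3a was near to Rhcg at 0.240 and 1700001P01Rik at 0.316, with its own spread at 0.528. Rhcg encodes an ammonia channel of epithelia. Upk3b was nearest to Vasp at 0.129, Syngr1 and Col4a5 at 0.147, with its own spread at 0.317. Upk1a, whose spread was 0.069, was nearest to Znhit2, Gm4425 and Sgcz (0.041 to 0.046), all of which were nearly flat over the arrays.

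Genes of proteins that carry or process uroplakins were read from a list of 11 partners and trafficking genes, of which 10 were measured. In the knockout against wild type 0 rose, 0 fell and 10 did not pass as ratios, with a list median of -0.06. In the sample channel 2 of 10 fell there, Mal and Upk3bl. The lowest ratio p was that of Mal, a lipid raft protein that helps bring uroplakins to the apical membrane, at -0.73 (SE 0.17; limma, adjusted p = 0.213). Its sample channel fell by 2.06 (limma, adjusted p = 0.00912), while its reference channel differed by -1.33. Mal fell by 0.98 in the knockout with Cdx2 against wild type (SE 0.19; limma, adjusted p = 0.0496), the 1 of 10 that passed there, where 1.40% of all genes did. The Mal call was kept in 1 of 9 fits that left out 1 array, the one without wild type replicate 3, and its value ran from -1.24 to -0.73 in these fits. Between knockout with Cdx2 and knockout 0 of 10 passed. Upk3bl, a gene with a protein like uroplakin 3b, differed by -0.11 between knockout and wild type as a ratio (SE 0.09; limma, adjusted p = 0.806). Its sample channel fell by 1.62 there (limma, adjusted p = 0.00167), while its reference channel differed by -1.50.

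Transcription factors that act in the urothelium were measured for 8 of 9 genes. Klf5, which is needed for urothelial differentiation in mice, fell in the knockout against wild type by 0.59 (SE 0.08; limma, adjusted p = 0.0301), and 7 did not pass. This Klf5 call was lost in 6 of 9 fits that left out 1 array, namely without wild type replicate 1, 2 or 4 or any 1 knockout array. The mean of the Klf5 probes gave -0.30 (limma, adjusted p = 0.784) in place of the brightest. In the knockout with Cdx2 against wild type Klf5 fell by 0.91 (SE 0.09; limma, adjusted p = 0.0077) and Elf3, a factor of differentiating epithelia, by 1.20 (SE 0.22; limma, adjusted p = 0.0464). With the mean of probes Klf5 stood at -0.24 there (limma, adjusted p = 0.670). The Elf3 call was kept only without wild type replicate 3 among the 9 fits that left out 1 array, with values from -1.47 to -0.93. Between knockout with Cdx2 and knockout 0 of 8 passed. Pparg, a receptor that promotes urothelial differentiation, differed by 0.01 between knockout and wild type (SE 0.38; limma, adjusted p = 0.996).

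Of 14 genes of urothelial differentiation, 2 fell, 1 rose and 11 did not pass in the knockout against wild type, with a list median of -0.56. Aqp3 fell by 1.97 (SE 0.20; limma, adjusted p = 0.00791) and Psca by 1.66 (SE 0.24; limma, adjusted p = 0.0360). Slc14a1, a urea transporter, was the gene that rose, by 2.30 (SE 0.19; limma, adjusted p = 0.00268). Slc14a1 passed in each of the 9 fits with 1 array omitted. The Aqp3 call was lost without knockout replicate 2 (limma, adjusted p = 0.0503), and the Psca call in 5 fits, when wild type replicate 1, 2 or 4, or replicate 2 or 3 of the knockout, was omitted. In the authors' value table Psca stood at -1.32 (limma, adjusted p = 0.424). Keratins of the umbrella cell such as Krt20 and Krt18 stood at -0.81 (limma, adjusted p = 0.867) and 0.03 (limma, adjusted p = 0.992). Krt19, Krt7 and Krt8 of the list stood at -0.93, -0.25 and -0.44 (limma, adjusted p = 0.224, 0.428 and 0.853). The Krt19 and Krt7 arrays did not overlap, as for 10.5% of all genes. In the sample channel Krt7 fell by 1.16 (limma, adjusted p = 0.0190), while its reference channel differed by -0.91. In the knockout with Cdx2 against wild type Aqp3, Psca and the keratin Krt13 fell by 3.11, 2.48 and 1.46, and Slc14a1 rose by 1.65 (limma, adjusted p at most 0.0203). There Krt13 no longer passed when wild type replicate 2 or 4 was omitted, and Slc14a1 when wild type replicate 4 or Cdx2 replicate 1 was. The calls of Aqp3, Psca, Slc14a1 and Klf5 were known when the lists were made and are no independent support. Between knockout with Cdx2 and knockout 0 of 14 passed.

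Other tetraspanins, the family of Upk1a and Upk1b, were read beside them. Of 29 listed, 27 were measured, and as log ratios 0 rose and 0 fell in each of the 3 comparisons in limma. In the sample channel 1 fell, Cd82 in the knockout with Cdx2 against wild type, by 0.58 (limma, adjusted p = 0.0266). In the knockout against wild type they ran from -0.24 for Tspan6 to 0.23 for Tspan11, with a median of 0.00 after rounding. Between knockout with Cdx2 and knockout they ran from -0.49 for Tspan17 to 0.31 for Tspan8. Against wild type the knockout with Cdx2 ran from -0.58 for Cd9, a tetraspanin of many epithelia, to 0.51 for Tspan8.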

How the data were processed

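Per the file headers, the deposited files hold, for both channels, spot mean intensities and local background medians, from Agilent Feature Extraction 10.7.3.1, with processed intensities and a log10 ratio of Cy5 over Cy3. The submitters' processing notes name version 9.1. The deposited value table holds log2 ratios for 41267 probes, which correlated with the scanner ratios at r of 0.992 or more. Its column medians were -0.213 to -0.0281, its centring is not given in the sources used here, and it served as an alternative. Each array had 45018 spots, 1639 of them controls. Outlier spots (119 to 171 per array) were left out, and 0 were saturated. Background was corrected by normexp with an offset of 50 and ratios by loess within arrays, with no dye swap in the series. A probe was kept when its sample signal was well above background on at least 2 of 9 arrays (33750 probes), and the brightest probe stood for its gene. Symbols came from a RefSeq table (GRCm38.p6, names only) for 26918 probes by accession and 5899 by symbol, and 8357 kept the file's name.

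All 9 arrays and 3 genotypes entered 1 linear model in limma 3.58.1 (R 4.3.3), with Benjamini-Hochberg adjustment over all genes at 0.05. The sample channel was fitted alone after quantile scaling of average intensities. The fits were tested on simulated data. The named genes are the 5 members, the 5 nearest genes to Upk1b and the 3 nearest to each other member, and from each list up to 4 passing genes per direction or the gene of lowest p. A gene that this rule names is not reported here. Upk3bl, Pparg, Krt20, Krt18, Krt19, Krt7, Krt8, Cd82, single marker genes and the ends of the tetraspanin range were named after their values were seen. Members and lists were chosen with earlier results of these data known. The labels call samples of a group biological replicates. The number of arrays limits the precision. Replicate numbers were not treated as pairs in the main fits, and so few arrays cannot show whether they were.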

Additional observations from a re-analysis of the deposited data

How the results depend on the processing

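The fall of Upk1b in the knockout against wild type passed in 11 of 12 alternatives, with values from -2.60 to -1.88. It did not pass with replicate number as a block (-1.88; limma, adjusted p = 0.256). Whether replicate numbers pair the samples is not settled. Same-numbered knockout and wild type arrays deviated together at r of -0.0611, 0.0494 and 0.183, and 1 of 3 knockout arrays matched its own number best. So few arrays cannot exclude a pairing. Leaving out 1 array gave -2.19 to -1.88, and the call was lost in 6 of these 9 fits. All these fits share wild type arrays with the choice of Upk1b and are no independent support. For Upk1b with Cdx2 against wild type the sample channel gave -3.37 and leaving out 1 array -3.32 to -2.29. The gene count for knockout against wild type, 74, became 183 without background subtraction, 133 with the processed signals and with the authors' table, 395 in the sample channel, 115 with only those groups, 9 with the replicate block and 22 to 121 with 1 array left out. With Cdx2 against the plain knockout, 0 became 4 with the processed signals and the authors' table, 51 in the sample channel, 1 with a trended and robust prior, and 0 to 36 with 1 array left out (36 without Cdx2 replicate 1, 11 without replicate 2). With Cdx2 against wild type, 318 became 803 without background subtraction, 163 with median centring, 548 in the sample channel, 544 with a trended and robust prior, 50 with only those groups, 8 with the replicate block and 58 to 371 with 1 array left out.

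Signs turned only for differences that did not pass. Upk2 in the knockout against wild type became -0.0931 without background subtraction and -0.0913 with processed signals and in the authors' table, -0.42 in the sample channel, and -0.0554 to 0.0772 with 1 array left out. Upk1a in the same comparison ran from -0.0478 to 0.0388 with 1 array left out. With Cdx2 against the knockout, Upk1a became -0.0420 with median centring and -0.174 in the sample channel, and leaving out 1 array gave Upk3a -0.0912 to 0.277 and Upk3b -0.170 to 0.120. The causes were not tested. Slide as a block was not run, since each slide held 1 genotype. Upk1a signals lay near the offset, which limits what its ratio can show. Of the 11 calls of list genes, all kept their direction in every alternative, and with the replicate block all 11 missed the threshold.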
